A study of Mus musculus with 12 samples.

Results

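Glyceroneogenesis and glycerol handling were followed through 6 listed genes, Pck1, Pck2, Pcx, Gpd1, Gpd2 and Aqp7, found by symbol among the 17090 genes of the deposited count table. All 6 had a row in it. RNA sequencing counts came from MTΔECad, a mesenchymal mouse breast cancer cell line whose name marks the loss of E-cadherin, taken through a fat cell protocol. Each of the 6 time points had 2 libraries, numbered as replicates in the labels, with RNA from 2 independent experiments. Cells were plated at 20000 per cm2 and left overnight; the 0 h libraries stand before any addition by the protocol. The libraries of 6 h and day 3 fall in the phase of 200 ng/ml human recombinant BMP2 alone, which lasted 3 days. Those of day 5 and day 7 fall in the 4 days of BMP2 with 2 µM rosiglitazone, and those of day 10 close the 3 days of rosiglitazone alone. BMP2 is a bone morphogenetic protein, and rosiglitazone activates PPARγ, a nuclear receptor at the head of the fat cell gene programme. No untreated cells of matched time are among the samples, so effects of the agents and of time in culture cannot be told apart.

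Fat cells store fatty acids as triglyceride, which needs a backbone of glycerol 3-phosphate. Glucose can supply it through dihydroxyacetone phosphate, and so can pyruvate or lactate through glyceroneogenesis, a shortened form of gluconeogenesis that stops at the triose phosphates. Pyruvate carboxylase, encoded by Pcx, makes oxaloacetate in mitochondria, and the phosphoenolpyruvate carboxykinases, cytosolic Pck1 and mitochondrial Pck2, turn oxaloacetate into phosphoenolpyruvate. Gpd1, the cytosolic glycerol-3-phosphate dehydrogenase, reduces dihydroxyacetone phosphate to glycerol 3-phosphate. Gpd2, the mitochondrial enzyme, oxidises glycerol 3-phosphate back and passes the electrons to the respiratory chain. Aqp7 is the aquaglyceroporin of fat cells, a channel through which glycerol from lipolysis leaves.

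Library totals lay between 12820802 and 17570366 counts. Levels are given as CPM, counts scaled to a common library size with trimmed mean of M-values (TMM) factors. Fold changes are log2 values from 1 edgeR quasi-likelihood fit over all 12 libraries with their standard error (SE), and a gene is called where the Benjamini-Hochberg adjusted p over the 12740 genes tested lies below 0.05. The summed level of 8 adipocyte markers lay between 2.50 and 2.78 CPM at 0 h and between 25737 and 27087 CPM at day 10. Most of the day 10 sum came from Fabp4 (mean 18825 CPM) and Cidec (4307), while Lep and Retn had means of 6.56 and 3.60. Liver and kidney also use Pck1. Of 7 hepatocyte markers 2 had a row in the count table, with a summed level of at most 0.919 CPM in any library. The others, Alb among them, had no row, so their levels are not known. The 5 proximal tubule markers of kidney summed to between 15.2 and 17.4 CPM at 0 h and between 2.24 and 3.06 CPM at day 10, nearly all from Lrp2 and Cubn, with Slc34a1 at 1 count in all libraries together. Of 5 leukocyte markers 3 had a row. They summed to at most 8.17 CPM (day 5), nearly all from Cd68, with Ptprc at 2 counts in all. Endothelial markers summed to at most 3.98 CPM (day 10). Among them Pecam1 went from a mean of 0.0309 CPM at 0 h to 3.69 at day 10, and Cdh5 from 0.651 to 0. The 4 epithelial markers summed to between 719 and 733 CPM at 0 h and between 258 and 284 CPM at day 10. Nearly all of this came from Krt8 and Krt18. Cdh1, which encodes E-cadherin, had a mean of at most 0.682 CPM. Epcam went the other way from the keratins, from 0 counts at 0 h to a mean of 7.71 CPM at day 7 and 5.74 at day 10. The part of these cell types in the results was not tested. In bulk RNA, fewer cells of a type and less RNA per cell cannot be told apart.

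Between the start and the end of the protocol the 6 genes split in direction. Gpd1, Pcx, Pck1 and Aqp7 rose, while Pck2 and Gpd2, the mitochondrial enzyme of each isoenzyme pair, fell. All 6 were called in day 10 against 0 h by edgeR, 4 higher and 2 lower. Over all genes tested, 82.7% were called in that comparison, 42.8% higher and 39.9% lower. All 6 also differed between time points in the joint test, as did 94.7% of genes tested, with the weakest of the 6 being Gpd2 (adjusted p = 7.38e-09). Pck1 and Aqp7 had no counts at 0 h and passed the filter on low counts through day 5 to day 10 alone, so their calls against 0 h, against day 3 and in the joint test were built in and no p is given for them. The count of calls among the 6 is a description, and of the other 4 genes Gpd1 and Pcx were higher and Pck2 and Gpd2 lower.

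**Figure D1:**
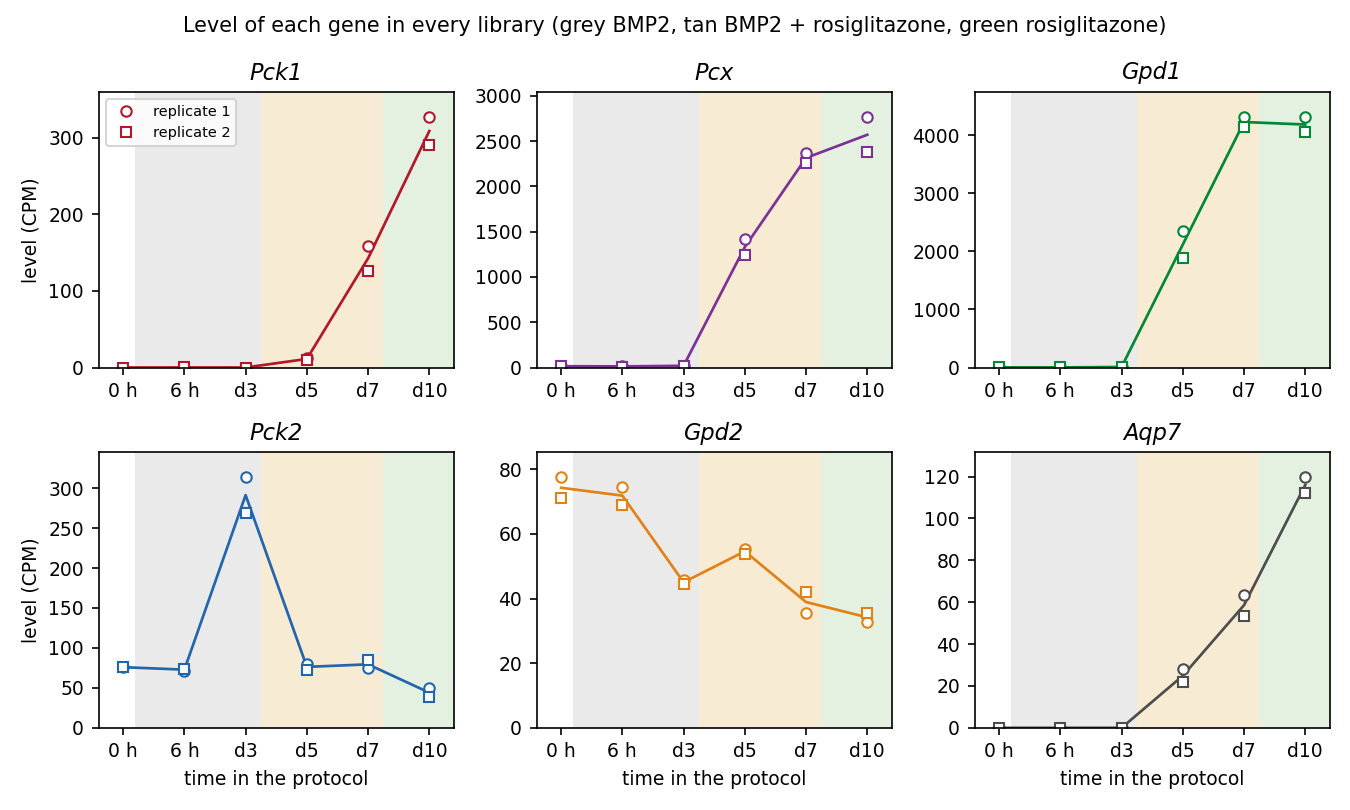
Level of each of the 6 genes (vertical axis, CPM, from 0) in each of the 12 libraries over the time points (horizontal axis), with circles for replicate 1, squares for replicate 2 and a line through the means. Pck1 and Aqp7 leave the floor at day 5, and Pcx and Gpd1 rise steeply from low levels between day 3 and day 5. Pck2 peaks at day 3 with 269 and 313 CPM, and Gpd2 ends at 32.9 and 35.5 CPM, below its 0 h libraries.

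Pcx, which feeds the pathway with oxaloacetate, lies on mm10 at chr19:4510472-4621752 on the plus strand. It stood at 12.5 and 16.3 CPM in the 0 h libraries, 14.3 and 10.1 at 6 h, and 20.8 and 17.4 at day 3. It then reached 1423 and 1237 CPM at day 5, 2369 and 2259 at day 7, and 2765 and 2373 at day 10. The libraries up to day 3 lay far below all later ones, and those of day 7 and day 10 lay close together, with the higher day 7 library just under the lower one of day 10. Day 10 exceeded 0 h by 7.47 (SE 0.19) on the log2 scale, about 177-fold (adjusted p = 6.49e-13). The largest step was that from day 3 to day 5, at 6.12 (SE 0.18; adjusted p = 8.87e-12). From day 5 to day 7 it rose by 0.80 (SE 0.14; adjusted p = 0.000631), and from day 7 to day 10 it was not called, at 0.15 (SE 0.14; adjusted p = 0.451). Within the BMP2 phase, day 3 exceeded 6 h by 0.65 (SE 0.18; adjusted p = 0.00540), a call lost without 6 h replicate 2 (adjusted p = 0.0578) or day 3 replicate 1 (adjusted p = 0.0747). Against 0 h, the same day 3 libraries were 0.40 (SE 0.17) higher and not called (adjusted p = 0.0589). That value passed the threshold without 0 h replicate 2 (0.61, adjusted p = 0.0193). The gene Lrfn4 lies inside a Pcx intron on the other strand and shares no exon with it, and its level stood at 61.0 ± 0.569 CPM (SD, n = 2) at 0 h, 64.5 ± 3.16 at day 5 and 16.7 ± 1.71 at day 10.

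Pck1, the cytosolic carboxykinase and a long-studied target of PPARγ in fat cells, lies at chr2:173153048-173159273 on the plus strand. Both 0 h libraries and both day 3 libraries held 0 counts, and the 6 h libraries held 0 and 2. Day 5 gave 203 and 163 counts, or 12.6 and 9.73 CPM, day 7 gave 159 and 126 CPM, and day 10 gave 327 and 291 CPM. No library of day 5, 7 or 10 overlapped another of these time points. Day 10 was at least 3054-fold higher than 0 h, against a floor of 3 counts over both 0 h libraries. Against the same floor, day 5 was at least 115-fold higher than day 3. The rise went on from there: 3.67 (SE 0.16; adjusted p = 1.20e-07) from day 5 to day 7, and 1.12 (SE 0.13; adjusted p = 0.000172) from day 7 to day 10. At day 5 the gene stood at 3.62% of its day 10 mean, and at day 7 at 46.2%.

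Aqp7, the glycerol channel, lies at chr4:41033074-41048139 on the minus strand. All 6 libraries from 0 h to day 3 held 0 counts of it. Its levels were 28.0 and 21.8 CPM at day 5, 63.6 and 53.5 CPM at day 7, and 120 and 112 CPM at day 10, with no overlap between these time points. Day 10 was at least 1149-fold higher than 0 h, and day 5 at least 256-fold higher than day 3, by the same floor. Like Pck1 it rose in both later steps, by 1.24 (SE 0.13; adjusted p = 1.26e-05) from day 5 to day 7 and by 0.99 (SE 0.12; adjusted p = 7.14e-05) from day 7 to day 10. At day 5 it had 21.4% and at day 7 50.5% of its day 10 mean.

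The stretches of 250 bases upstream of the annotated starts of Pck1, Aqp7 and Pck2 are printed because the first pair had no counts, or at most 2, before rosiglitazone and rose together from day 5, while Pck2 followed another course. They come from RefSeq on GRCm38.p6, 5′ to 3′ on the strand of the gene, with matches to the searched words in capitals. Pck1 is chr2:173152823-173153072 (plus strand), Aqp7 is chr4:41048137-41048386 (minus strand, the outer of its 2 starts) and Pck2 is chr14:55540016-55540265 (plus strand).
Pck1: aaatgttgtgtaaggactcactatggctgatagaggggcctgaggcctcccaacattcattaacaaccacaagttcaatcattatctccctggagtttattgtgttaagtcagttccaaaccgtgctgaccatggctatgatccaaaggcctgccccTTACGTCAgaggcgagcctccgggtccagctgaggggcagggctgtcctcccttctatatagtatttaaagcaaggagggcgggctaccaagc
Aqp7: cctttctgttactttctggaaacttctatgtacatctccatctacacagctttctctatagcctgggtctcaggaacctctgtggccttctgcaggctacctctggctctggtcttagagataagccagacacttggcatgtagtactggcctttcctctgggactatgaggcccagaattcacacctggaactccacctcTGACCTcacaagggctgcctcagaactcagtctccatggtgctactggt
Pck2: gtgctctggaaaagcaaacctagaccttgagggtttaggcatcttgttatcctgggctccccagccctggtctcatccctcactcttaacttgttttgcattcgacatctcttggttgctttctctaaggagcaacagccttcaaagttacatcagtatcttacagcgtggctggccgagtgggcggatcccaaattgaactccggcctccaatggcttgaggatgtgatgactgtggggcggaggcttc
The words were searched on both strands in windows from 250 bases before to 50 after each start: AGGTCA, the half-site of many nuclear receptors (its reverse complement reads TGACCT), a direct repeat of it with 1 base between, as PPARγ and RXR prefer, the cAMP response words TGACGTCA and TTACGTCA, and TATAAA. The Pck1 window held TTACGTCA at bases 93 to 86 before the start, a word found in 0.499% of 32851 promoter windows. Aqp7 held a reverse AGGTCA at bases 49 to 44 before the outer start, and another at bases 101 to 96 before its inner start; 16.3% of all windows held that word. A reverse AGGTCA also lay at bases 40 to 45 after the second start of Pcx. The direct repeat (0.0396% of windows), TGACGTCA (1.79%) and TATAAA (13.6%) had no match in the windows of Pck1, Pck2, Pcx, Gpd2 or Aqp7, and the Pck2 window had no match to any word. Gpd1 had no entry. Only exact words inside these windows were searched, so sites further upstream or with other bases would not be found.

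Gpd1, which makes glycerol 3-phosphate, was the most abundant of the 6 from day 5 on. It lies at chr15:99717515-99725005 on the plus strand. Its levels were 1.76 and 2.47 CPM at 0 h, 1.56 and 1.90 at 6 h, and 9.84 and 8.03 at day 3. They reached 2351 and 1883 CPM at day 5, 4308 and 4146 at day 7, and 4312 and 4054 at day 10. The day 3 libraries already lay above all 4 earlier ones, and the day 7 and day 10 libraries overlapped. Gpd1 rose by 2.06 (SE 0.20; adjusted p = 1.02e-07) from 0 h to day 3, by 7.89 (SE 0.15; adjusted p = 3.78e-16) from day 3 to day 5, and by 1.00 (SE 0.11; adjusted p = 2.54e-06) from day 5 to day 7. Day 10 differed from day 7 by -0.01 (SE 0.11; adjusted p = 0.937). Over the whole protocol the rise was 10.93 (SE 0.18; adjusted p = 1.61e-17), about 1945-fold. Per kilobase of the gene length in the deposited table, it ranked 10758 of 12740 genes tested at 0 h and 22 at day 10, while Pcx went from rank 8932 to rank 94.

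Gpd2, the mitochondrial dehydrogenase that consumes glycerol 3-phosphate, moved little by comparison. It lies at chr2:57237635-57370719 on the plus strand. Its libraries stood at 77.5 and 71.0 CPM at 0 h, 74.6 and 69.1 at 6 h, and 45.7 and 44.4 at day 3. Then came 55.3 and 53.9 CPM at day 5, 35.7 and 42.2 at day 7, and 32.9 and 35.5 at day 10. The 0 h and 6 h libraries overlapped and lay above all others, and the day 10 libraries lay below all others. Gpd2 fell by 0.72 (SE 0.091; adjusted p = 2.37e-06) from 0 h to day 3 and fell by 1.12 (SE 0.094; adjusted p = 7.59e-09) from 0 h to day 10 on the log2 scale. Between them came a rise of 0.28 (SE 0.091; adjusted p = 0.0138) from day 3 to day 5, which missed the threshold without day 3 replicate 2 (adjusted p = 0.0547) or day 5 replicate 1 (adjusted p = 0.0763), and a change of -0.49 (SE 0.092; adjusted p = 0.000562) from day 5 to day 7. The last step, -0.19 (SE 0.097; adjusted p = 0.165), was not called.

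Pck2, the mitochondrial carboxykinase, had a course of its own among the 6, with a peak at day 3. It lies at chr14:55540266-55551242 on the plus strand. Levels were 76.2 and 75.5 CPM at 0 h and 71.4 and 74.2 at 6 h, then 313 and 269 CPM at day 3. They came back to 79.7 and 72.8 CPM at day 5 and 74.4 and 84.5 at day 7, and ended at 49.5 and 38.5 CPM at day 10. Both day 3 libraries lay above all others, and both day 10 libraries below all others. Pck2 rose by 2.00 (SE 0.10; adjusted p = 1.61e-10) from 6 h to day 3, changed by -1.93 (SE 0.10; adjusted p = 2.31e-10) from day 3 to day 5, and by -0.86 (SE 0.11; adjusted p = 4.01e-05) from day 7 to day 10. Between day 5 and day 7 the difference was 0.06 (SE 0.11; adjusted p = 0.692). Day 10 against 0 h came to -0.79 (SE 0.11; adjusted p = 8.01e-06).

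Transcripts annotated as antisense or on the other strand overlap exons of Pck2 (Gm10876), Gpd1 (Gm16537) and Gpd2 (A930012O16Rik). They were not analysed here. The kit keeps strand, but whether counting used it is not given in the sources used here, so reads of these partners cannot be told apart from those of the 3 genes. Pck1 and Aqp7 overlap no annotated gene.

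To compare levels between genes, CPM were divided by the length of the longest annotated transcript in kilobases. At 0 h the order was Pck2 at 16.4 ± 0.103 (SD, n = 2), Gpd2 at 12.9 ± 0.790, Pcx at 3.47 ± 0.654 and Gpd1 at 0.740 ± 0.176 CPM per kilobase, with Pck1 and Aqp7 at 0. At day 10 it was Gpd1 at 1462 ± 63.7, Pcx at 619 ± 66.7, Pck1 at 113 ± 9.45, Aqp7 at 45.9 ± 2.03, Pck2 at 9.52 ± 1.69 and Gpd2 at 5.93 ± 0.317. The first 4 places of day 10 stood apart by far more than the spread of the libraries. The order of Pck2 and Gpd2 depended on the length used. With all annotated exons merged, Gpd2 led at 0 h (11.3 ± 0.695 against 9.72 ± 0.0613), and at day 10 the pair lay within their spread, at 5.22 ± 0.278 for Gpd2 and 5.64 ± 0.998 for Pck2.

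Both isoenzyme pairs changed sides between 0 h and day 10. The ratio of Gpd1 to Gpd2 per kilobase was 0.0458 and 0.0701 in the 0 h libraries, 0.0422 and 0.0553 at 6 h, and 0.434 and 0.364 at day 3, always in favour of Gpd2. From day 5 Gpd1 led, with ratios of 85.5 and 70.3 at day 5, 243 and 198 at day 7, and 264 and 230 at day 10. For Pck1 over Pck2 the ratio was 0.268 and 0.227 at day 5, so that Pck2 still led there. It was 3.62 and 2.54 at day 7 and 11.2 and 12.8 at day 10, in favour of Pck1. With the deposited gene lengths the day 10 values were 8.58 and 9.81, and merged exons made both higher.

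**Figure D2:**
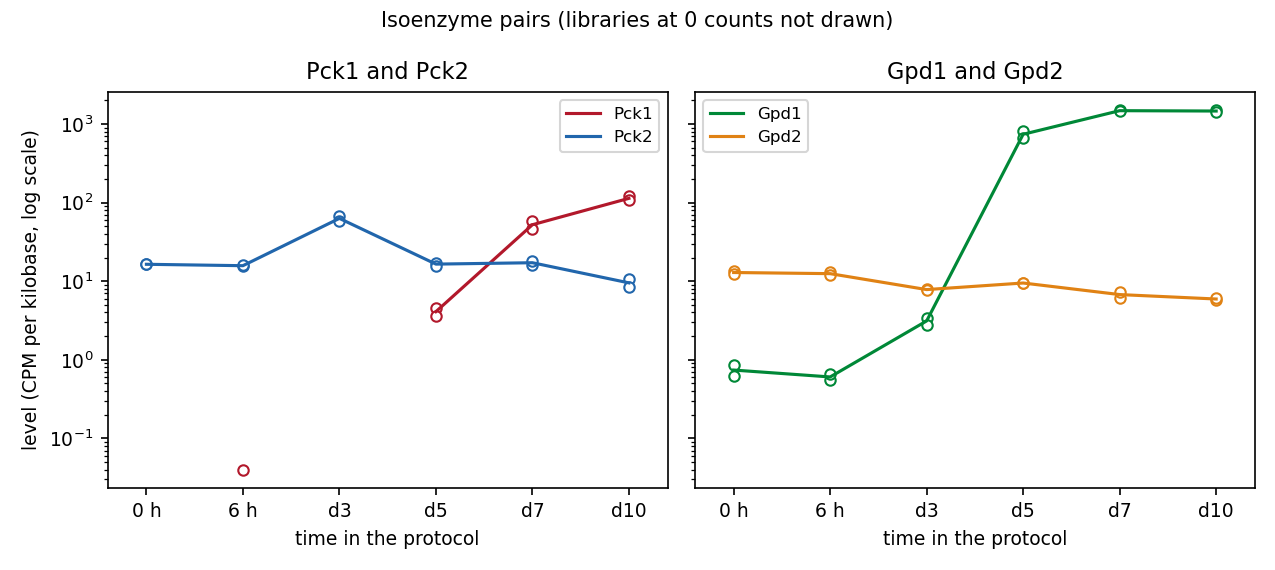
Levels of the isoenzyme pairs in CPM per kilobase of the longest transcript (vertical axis, log scale) over the 6 time points, with open points for libraries and lines through the means; libraries at 0 counts are not drawn and the line of Pck1 starts at day 5. Gpd1 crosses Gpd2 between day 3 and day 5, and Pck1 crosses Pck2 between day 5 and day 7, ending at 113 against 9.52 CPM per kilobase.

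Step by step, the first hours of BMP2 left the 6 genes without a call. In 6 h against 0 h edgeR called 0 of 6, against 0.746% of genes tested (0.534% higher and 0.212% lower). By unadjusted p under 0.05 the count was also 0 of the 6, and DESeq2 called 0. For unadjusted p and for DESeq2 the share over all genes is not given here. The 4 genes with counts enough for a fold change lay between -0.30 (SE 0.26, Gpd1) and -0.05 (SE 0.088, Gpd2). Over the whole BMP2 phase, day 3 against 0 h, 3 of 6 were called: Pck2 and Gpd1 higher and Gpd2 lower, where 68.1% of genes tested were called, 33.1% higher and 35.0% lower. In day 3 against 6 h 4 of 6 were called, with Pcx added on the higher side, against 68.4% of genes tested, 32.9% higher and 35.5% lower. In all of these comparisons Pck1 and Aqp7 had 0 to 2 counts on either side and could not be called. The counts out of 6 thus rest on the other 4 genes and are not to be set against the shares as they stand.

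The step from day 3 to day 5, the first 2 days with rosiglitazone, held the largest steps of Pck1, Aqp7, Pcx and Gpd1. Pck2 had steps of like size up to day 3 and down from it, and the largest step of Gpd2 was that from 6 h to day 3. The calls of Pck1 and Aqp7 were built in, as both had 0 counts at day 3. Of the other 4, Pcx, Gpd1 and Gpd2 were called higher and Pck2 lower, where 65.0% of genes tested were called, 34.0% higher and 31.0% lower. In day 7 against day 5, 5 of 6 were called, with Pck1, Aqp7, Gpd1 and Pcx higher and Gpd2 lower, against 37.8% of genes tested, 19.0% higher and 18.8% lower. In day 10 against day 7, when BMP2 was no longer given, 3 of 6 were called, Pck1 and Aqp7 higher and Pck2 lower, against 28.4% of genes tested, 15.1% higher and 13.2% lower. Gpd1 and Pcx were at 100% and 90.1% of their highest means by day 7. Differences between the genes in how much each step changed them were not tested. These comparisons share libraries at neighbouring time points.

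**Figure D3:**
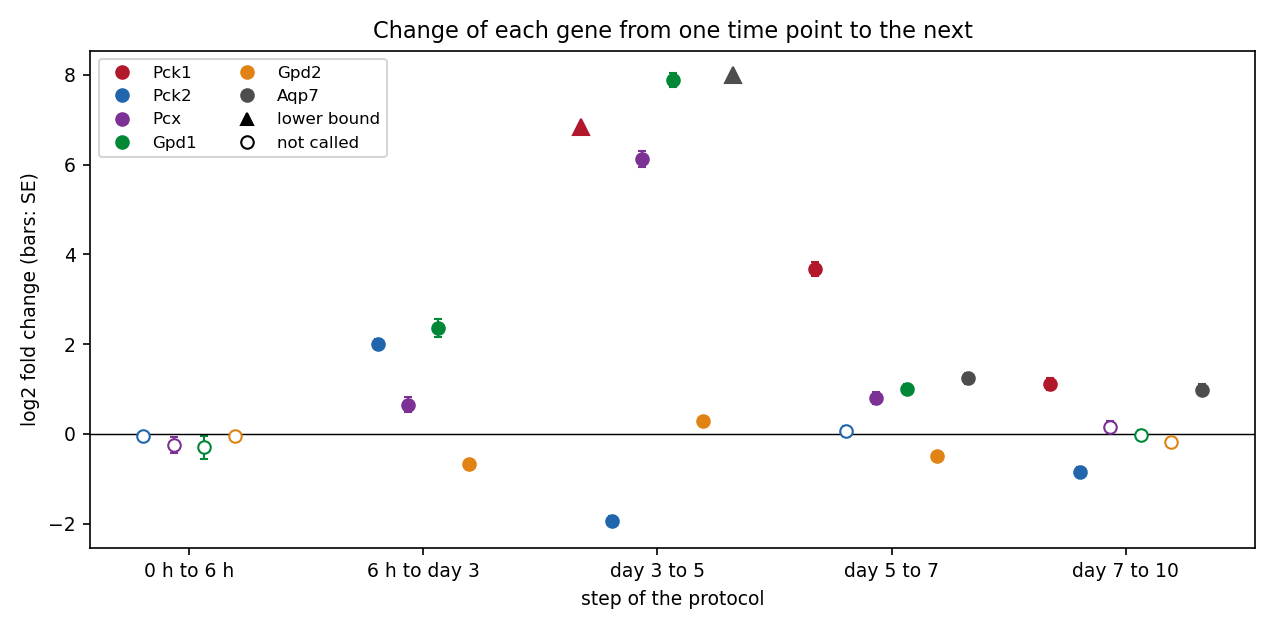
Log2 fold change of each gene (vertical axis, bars give the SE) from each time point to the next (horizontal axis), with filled points for calls, open points for no call and triangles for lower bounds against a floor of 3 counts; steps with at most 3 counts on both sides are not drawn. From day 3 to day 5, Gpd1 (7.89), Pcx (6.12), Pck1 and Aqp7 rise and Pck2 changes by -1.93.

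Related genes were taken from 8 lists. Counts of their calls stand beside the shares of all genes tested: 42.8% higher and 39.9% lower in day 10 against 0 h, 33.1% and 35.0% in day 3 against 0 h, and 34.0% and 31.0% in day 5 against day 3. Aqp3, Fbp2, Pparg, Ppargc1a and Acacb lay under the filter on low counts in at least 1 of the 0 h libraries and passed it through later time points, so their calls against 0 h were built in, though they are in the counts. In the list of glycerol channels, kinases and side routes, 7 of 9 were tested, and 6 were called higher and 1 lower in day 10 against 0 h, with a median log2 fold change of 1.50 against 0.06 for all genes tested. Gk, the glycerol kinase that would return glycerol to glycerol 3-phosphate, went from 53.1 ± 6.36 CPM at 0 h to 15.1 ± 0.512 at day 3. It then stood at 117 ± 6.13 at day 5, 202 ± 6.60 at day 7 and 169 ± 28.9 at day 10. Gk thus fell in the BMP2 phase (-1.81, SE 0.12; adjusted p = 2.43e-09) and rose by 2.95 (SE 0.12; adjusted p = 5.02e-12) in the next 2 days. Gk5, a kinase of the same family, rose by 1.85 (SE 0.23; adjusted p = 1.03e-06) over the protocol. Pgp, a glycerol-3-phosphate phosphatase, rose by 0.84 (SE 0.14; adjusted p = 5.85e-05), and Gpd1l, a relative of Gpd1, changed by -0.61 (SE 0.13; adjusted p = 0.000357). Aqp3, another aquaglyceroporin, stayed at or under 0.952 CPM on average at every time point, and Aqp9 had 0 counts at 0 h and at day 10.

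Genes that free glycerol or acylate its phosphate ended higher than they began. All 3 lipases were called higher in day 10 against 0 h, as were 42.8% of genes tested (median 7.42 against 0.06 for all genes tested): Pnpla2, the first lipase of triglyceride breakdown, by 6.13 (SE 0.13), Lipe, hormone-sensitive lipase, by 7.42 (SE 0.13), and Mgll, monoglyceride lipase, by 8.63 (SE 0.25). Each was called higher already in day 3 against 0 h, as were 33.1% of genes tested, when Aqp7 had no counts. Among the first acyltransferases 3 of 4 were tested and all 3 were higher, Gpat3 by 5.37 (SE 0.10), Gpam by 1.98 (SE 0.079) and Gpat4 by 0.67 (SE 0.075). At day 3 they were split, with Gpat3 and Gpam higher than at 0 h and Gpat4 lower, at -0.46 (SE 0.076; adjusted p = 4.67e-05). From day 7 to day 10, when Gpd1 was not called, Gpam rose by 0.74 (SE 0.075; adjusted p = 1.81e-06).

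The steps between phosphoenolpyruvate and triose phosphate, shared with glycolysis, fell first and rose later. In day 3 against 0 h, 6 of 7 tested were lower and 1 higher (median -1.37 against 0.00 for all genes tested), where 35.0% of genes tested were lower. In day 5 against day 3, 6 were higher and 1 lower (median 1.25), where 34.0% were higher. By day 10, 6 were higher and 1 lower than at 0 h (median 1.46), where 42.8% were higher. Tpi1, triose phosphate isomerase, went from 516 ± 0.452 CPM at 0 h to 166 ± 24.6 at day 3 and 1422 ± 10.7 at day 10. The lower member was Eno3, the muscle enolase, at -1.93 (SE 0.15; adjusted p = 7.08e-09). Gapdh stood at 2.12 ± 0.407 CPM at 0 h and 8.05 ± 0.0153 at day 10. It has many near-identical pseudogenes, and how reads with several matches were counted is not given in the sources used here, so its level is uncertain. Eno2, the neuronal enolase, rose by 4.32 (SE 0.19) and Pgk1, phosphoglycerate kinase, by 2.16 (SE 0.10) over the protocol. Eno1, the common enolase, went from 164 ± 0.779 CPM at 0 h to 63.4 ± 0.800 at day 3 and 201 ± 0.358 at day 10.

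For the supply of pyruvate and malate, 12 of 17 genes were higher and 5 lower in day 10 against 0 h (median 3.11), where 42.8% of genes tested were higher and 39.9% lower. Pkm, pyruvate kinase and the most abundant of them, went from 2342 ± 39.1 CPM at 0 h to 881 ± 96.9 at day 3 and 3012 ± 74.7 at day 10. Pdk2, Pdk1 and Pdk4, kinases that hold pyruvate back from acetyl-CoA, rose by 5.44 (SE 0.16), 5.02 (SE 0.19) and 4.87 (SE 0.18), and Pdk3 changed by -1.19 (SE 0.099). Mdh1, the cytosolic malate dehydrogenase, went from 175 ± 0.170 CPM at 0 h to 132 ± 12.4 at day 3, 1506 ± 122 at day 5 and 1875 ± 75.2 at day 10. The shuttle members with the largest falls were Slc25a13, an aspartate-glutamate carrier, at -3.43 (SE 0.18), and Got1, the cytosolic aspartate aminotransferase, at -1.26 (SE 0.11). Got1 peaked at day 3 with 168 ± 20.9 CPM against 82.0 ± 2.01 at 0 h, as Pck2 did. Of the 6 genes for gluconeogenesis past triose phosphate, 3 were tested. Slc37a4, the glucose 6-phosphate transporter, rose by 1.80 (SE 0.15) and G6pc3, the ubiquitous phosphatase, by 0.56 (SE 0.17), where 42.8% of genes tested were higher. In the joint test over the time points G6pc3 was not called (adjusted p = 0.0566), where 94.7% of genes tested were. Fbp1 and G6pc, which the liver uses to finish glucose, had no counts at 0 h and reached at most 10 counts (Fbp1) and 3 counts (G6pc) over the libraries of a time point, both at day 7. Fbp2, the muscle form of fructose bisphosphatase, had no counts up to day 3 and reached 3.79 ± 0.924 CPM at day 10, so that its call was built in.

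Of 12 known regulators of the Pck1 promoter 11 were tested, with 8 higher, 2 lower and 1 not called in day 10 against 0 h (median 1.95), where 82.7% of genes tested were called. Pparg stood at 0.135 ± 0.0164 CPM at 0 h, 2.05 ± 0.408 at 6 h, 35.7 ± 14.7 at day 3, 184 ± 15.2 at day 5 and 339 ± 4.47 at day 10. It was thus above 0 h at day 3, at a time when Pck1 and Aqp7 had no counts. Cebpa rose by 4.63 (SE 0.13) over the protocol and Ppargc1a, a coactivator of PPARγ, by 5.74 (SE 0.22), whose highest mean was 66.6 ± 1.56 CPM at day 5, against 32.8 ± 0.109 at day 10. Nr2f2 and Creb1 changed by -0.90 (SE 0.11) and -0.69 (SE 0.079), and Nr3c1, the glucocorticoid receptor and the most abundant of the list, rose by 1.95 (SE 0.072). Nr4a1 was not called in that comparison (adjusted p = 0.482), but it was 3.74 (SE 0.29; adjusted p = 5.83e-08) higher at day 3 than at 0 h and changed by -1.92 (SE 0.24; adjusted p = 7.55e-06) from day 3 to day 5. The biotin enzymes beside Pcx were 8 genes, all called higher (median 2.92), as were 42.8% of genes tested. Acacb, the acetyl-CoA carboxylase of the mitochondrial membrane, rose most, by 8.86 (SE 0.18), followed by Mccc1 and Mccc2, the subunits of methylcrotonyl-CoA carboxylase, by 4.30 (SE 0.15) and 3.32 (SE 0.089). Acaca, the cytosolic acetyl-CoA carboxylase, rose by 1.54 (SE 0.074) and Pccb, a subunit of propionyl-CoA carboxylase, by 3.09 (SE 0.097).

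At 6 h, edgeR called 0 of the 59 related genes tested, where 0.746% of all genes tested were called. An unadjusted p under 0.05 was reached by 5 (Gk5, Gpat3, Pnpla2, Pparg and Foxo1), and DESeq2 called 1, Pparg, at 3.94. For these last counts the share over all genes is not given here. Pparg had 4 counts over the 0 h libraries and 70 over those of 6 h, so no p is given for that call. The edgeR fit put it at 3.86 (SE 1.04) and did not call it.

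**Figure D4:**
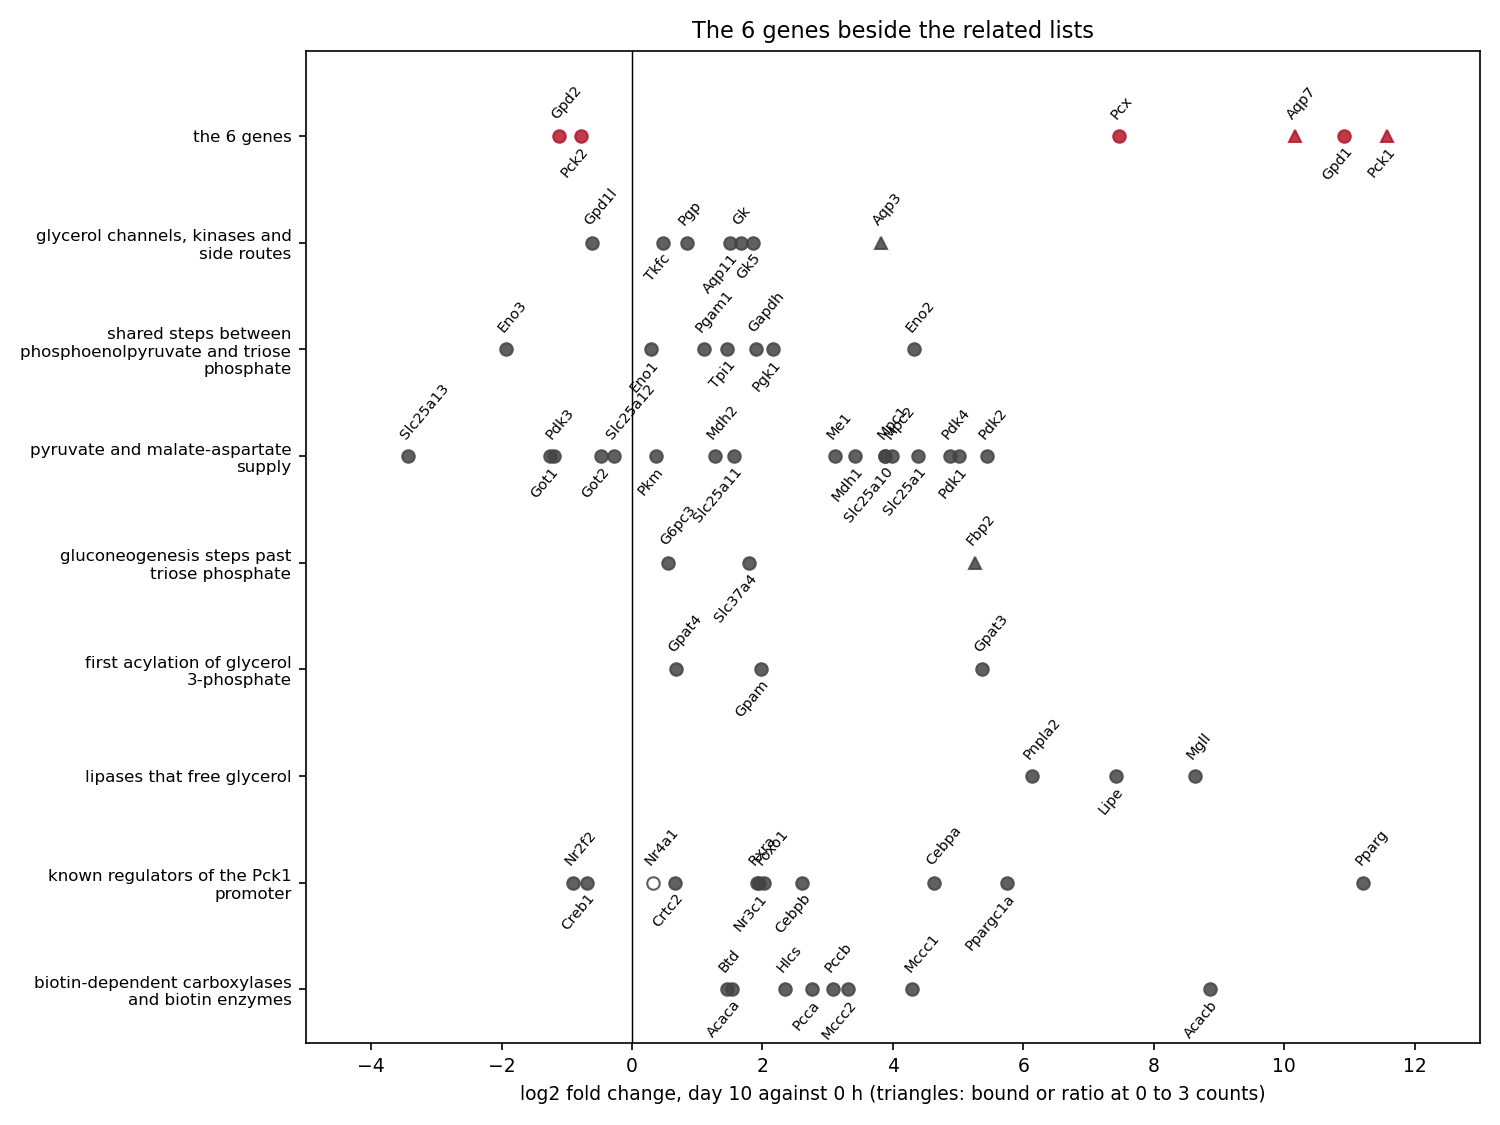
Log2 fold change in day 10 against 0 h (horizontal axis) of the 6 genes (top row, red) and of the tested members of 8 related lists (rows), with triangles for genes at 0 to 3 counts in a group, drawn at their bound or ratio, and an open point for no call. Gpd2 and Pck2 stand left of 0 at -1.12 and -0.79, the lipases stand between 6.13 and 8.63, and most members of the other lists lie right of 0.

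Among themselves, the time-point means of Pcx, Gpd1 and Aqp7 were alike in log2 CPM, with Pearson's r over 6 time points between 0.986 and 0.996. Pck1 had r between 0.958 and 0.985 with these 3, and its value with Aqp7 was close to that of Gpd1 with Aqp7. Pck1 and Aqp7 lay at the floor, at 0 to 2 counts, up to day 3, so their r values mostly reflect the rise after it. Gpd2 ran against the 4 rising genes, at r between -0.79 and -0.74, and had r of 0.03 with Pck2. For each gene the most alike were then sought among 6220 genes with a highest mean of at least 10 CPM and a span of at least 1 log2 unit. They were Lrrc39 and Aldh3b3 for Pck1 (r of 0.9997 for the first), Sort1, Ephx2 and Lama4 for Pcx (0.9997), Mtarc2, Hsdl2 and Rmnd1 for Gpd1 (0.9997), and Thrsp, Rasl12 and Mgst3 for Aqp7 (0.9998). Such likeness was common among rising genes: 170 genes had r of at least 0.99 with Pck1, 301 with Pcx, 279 with Gpd1 and 280 with Aqp7. For Gpd2 they were Loxl1, Cep43 and Rtca (0.9962 for the first), with 11 genes at or above 0.99. For Pck2 they were Ern1, a sensor of endoplasmic reticulum stress, the seryl-tRNA synthetase gene Sars, and Tab2 (0.9922 for the first), and only Ern1 reached 0.99. These correlations rest on 6 means of the same 12 libraries and are given as a description.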

How the data were processed

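RNA of 12 libraries (6 time points, 2 each) was sequenced from a stranded total RNA kit on 200 ng of RNA, per the labels' protocols, which also speak of poly-A+ RNA. The deposited values are raw counts per Entrez gene, which the authors also list with a gene length. The submitters' processing notes name STAR and the mm10 build. Which tool and annotation gave the counts is not given in the sources used here. Of 17090 identifiers 17045 were matched to RefSeq symbols (GRCm38.p6), 4 through GENCODE, and 41 stayed unmatched. Positions and transcript lengths come from GENCODE M21 on GRCm38 (mm10).

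Counts were fitted with edgeR 4.0.16 (R 4.3.3): filterByExpr (minimum count 10.0, minimum total 15), TMM factors, 1 mean per time point (6 residual degrees of freedom), robust quasi-likelihood F tests, Benjamini-Hochberg adjustment over 12740 genes and a prior count of 0.125. SE is the size of the log2 fold change over the square root of F. Depth is the library total, and intervals and floors cover counting error only; p-values measure the spread between 2 libraries per time point, pooled over the 6. Log2 CPM for likeness used a prior count of 2. The steps were tested on simulated data. The members, the 8 related lists and the markers were chosen with earlier results of these data known. The 6 genes were named throughout; list members were named by the 3 largest called rises and falls from 0 h to day 10 and the 2 most abundant (Pgp, Aqp9, Fbp1, G6pc, Nr4a1 and Foxo1 were named after their values were seen), and like genes by Pearson's r, with predicted genes and pseudogenes passed over; 1 like gene is not reported here. Alternatives were median-of-ratios and upper-quartile factors, DESeq2 1.42.0, fits without a filter or with a 1 CPM minimum mean, with a replicate block or on just the 4 libraries in question, another prior count, each library left out, and other gene lengths, of which the deposited one was chosen after seeing the data.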

Additional observations from a re-analysis of the deposited data

How the results depend on the processing

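Of 36 fold changes of the 6 genes with enough counts, 27 were called, those of Pck1 and Aqp7 against groups at 0 counts by construction, and 25 of these kept direction and call under all 20 alternatives. The rise of Gpd2 from day 3 to day 5 was not called with upper-quartile factors (0.20, adjusted p = 0.0655) and ranged from 0.24 to 0.30 with a library left out. That of Pcx from 6 h to day 3 ranged from 0.42 to 0.91 in the same way. The change of Pcx from 0 h to day 3, not called, passed with upper-quartile factors (0.51), without a filter (0.39), with only the 4 libraries compared (0.43) and with a replicate block (0.39, adjusted p = 0.0361), and ranged from 0.22 to 0.61 with a library left out, where it passed in 3 of 12. The cause was not tested. Left-out libraries turned the sign of 3 values that were not called: Gpd2 at 6 h against 0 h (-0.11 to 0.013), Pck2 at day 7 against day 5 (-0.036 to 0.15) and Gpd1 at day 10 against day 7 (-0.060 to 0.028). The replicate block changed no other call of the 6 genes. The labels do not say whether the replicate numbers pair the samples across time points. The difference between replicates 1 and 2 correlated across genes between time points from -0.09 to 0.19, above 0.1 in 1 of 15 pairs of time points. Correlations this weak cannot settle whether the samples are paired. Over all genes, 95 were called at 6 h, against 275 without a filter and 223 with only the 4 libraries compared. Upper-quartile factors moved the median of all genes by 0.11 in day 3 against 0 h and by 0.12 in day 3 against 6 h. Counts of 0 to 2 before day 5 limit Pck1 and Aqp7 to bounds.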
